A study of Solanum lycopersicum with 12 samples.

Results

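The 4 wild type (WT) leaf samples of the series were described on their own, across all 33976 genes of the deposited table. They were taken by the genotype in the sample labels and are 4 of 12 samples, the other 8 coming from the edited lines *slmyb60Cr1* and *slmyb60Cr2*, which were not used here. WT is the tomato cultivar Red Setter, a processing variety with determinate growth, and it carried neither edit. Each sample was one biological replicate, made of leaf discs pooled from 4 plants, so plant-to-plant differences are averaged within a sample. The study's methods place the discs on the fourth leaf, once fully expanded, of 6-week-old plants, with no water deficit named for the RNA samples. The labels give all 12 samples a water stress with watering halted for 14 days, which is the treatment that the methods describe for a separate greenhouse experiment, and which of them holds for these libraries cannot be told here. RNA was poly(A)-selected, and levels are given in TPM, a transcript abundance corrected for transcript length, which summed to 1000000 in every library. The table carries no read counts, so the number of reads behind a gene's value is unknown and no counting error could be given. Read totals are listed by the study for each library and were not used as values, but by them the second WT replicate is the shallowest of the WT libraries and the third the deepest.

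A mature leaf is mostly mesophyll, the tissue that carries out photosynthesis, wrapped in an epidermis that secretes a waxy cuticle and holds the stomata, with vascular strands running through it. In green leaves a small set of nuclear genes, above all those for the light-harvesting proteins and the small subunit of Rubisco, is known to supply a large part of the messenger RNA, while most genes are transcribed at low levels or not at all. Plastid transcripts mostly lack long poly(A) tails and are largely missed by poly(A) selection. The identifiers of the table are tomato Solyc numbers, whose first 2 digits give the chromosome. The sources used here pair them with product names for few genes, so the TPM held by photosynthesis, translation and other functions could not be summed, and the leaf markers could not be looked up to check the labelled tissue. Genes without a product name are described by rank, level and chromosome, and at most 2 identifiers are printed for each group of them.

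The 4 libraries agreed closely. Across the 33976 genes, Pearson's r of log2(TPM + 1) lay between 0.990 and 0.995 over the 6 pairs of libraries, and Spearman's rho of TPM between 0.980 and 0.985. Both are correlations across genes, which are not independent replicates. Among the 12720 genes with a mean of at least 10 TPM, replicates 3 and 4 differed at least 2-fold in 0.660%, the fewest of any pair, and replicates 1 and 2 in 1.07%. In the other 4 pairs 1.56% to 2.51% of the genes differed that much. The first principal component of the deviations from each gene's mean held 62.4% of their variance, with weights of −0.49 in replicate 1, −0.49 in replicate 2, 0.37 in replicate 3 and 0.62 in replicate 4. This axis thus set the first pair of libraries against the second pair. The labels name no harvest day, batch or pool that would tell them apart, and what separates them was not tested.

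The highest genes held a moderate share of the leaf transcriptome. The 10 highest genes of a library held 7.37%, 6.93%, 6.49% and 6.997% of its TPM in replicates 1 to 4, a mean of 6.95% ± 0.36 (SD, n = 4). The 100 highest held 21.8% ± 0.39 and the 1000 highest 48.8% ± 0.58 (SD, n = 4). Read the other way, 50% of the TPM was reached with 1092, 1029, 1114 and 1070 genes, 75% with 3940 ± 104 genes, 90% with 8314 ± 162 genes and 99% with 15744 ± 152 genes (SD, n = 4). Replicate 1 had the largest share in its 10 and 20 highest genes, and replicate 2 in its 100, 1000 and 5000 highest, with 49.5% of its TPM in the 1000. It needed 8072 genes for 90% of its TPM, against 8386 to 8411 genes in the other 3 libraries.

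**Figure D1:**
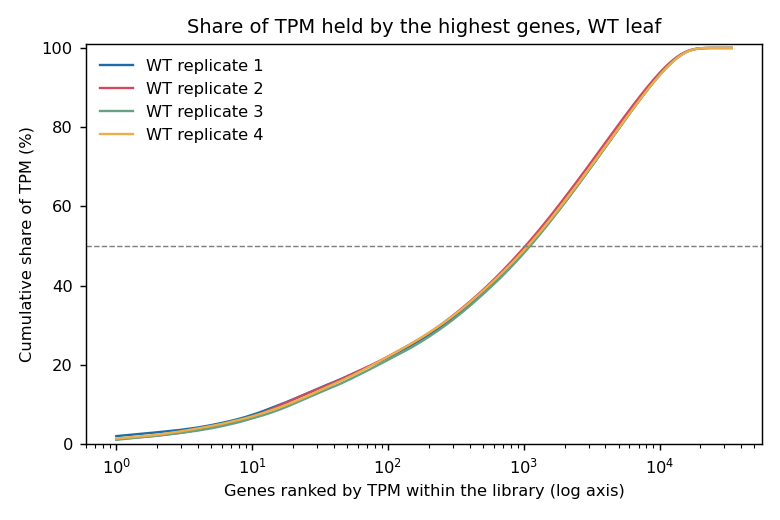
Cumulative share of TPM in percent, against the rank of the gene within its library on a log axis, with one line for each of the 4 WT libraries and a dashed line at 50%. The lines nearly coincide, and they cross 50% between 1029 and 1114 genes.

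The first place was not held by the same gene in every library. Solyc08g082190_3_1, on chromosome 8, had the highest mean and reached 9695, 12404, 10929 and 9563 TPM in replicates 1 to 4. It was the highest gene in replicates 2 and 3 only. Solyc09g007010_1_1, on chromosome 9, had 20186, 6859, 5438 and 8967 TPM. Replicate 1 stood far above the others, so that this gene alone held 2.02% of that library, and its mean of 10362 TPM carried an SD of 6708. Without replicate 1 its SD over mean was 0.251, against 0.647 with all 4 libraries. The third gene by mean, on chromosome 2, had 6262, 8719, 10419 and 13977 TPM and was the highest gene of replicate 4. These 3 genes differed by less than the spread between replicates, and their order is not resolved by 4 libraries.

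From rank 4 on the levels were closer together. The genes at ranks 4, 5 and 6, on chromosomes 3, 9 and 6, had means of 6283 ± 892, 6220 ± 1039 and 6010 ± 777 TPM (SD, n = 4). The gene at rank 20 had 3297 ± 677 TPM, so that the highest mean was 3.23 times that of rank 20 and 13.9 times that of rank 100. Of the genes among the 20 highest of any library, 25 in all, 14 were among the 20 highest in each of the 4. At the 100 highest, 82 of 120 genes were shared by all 4 libraries. The libraries did not take turns evenly at the top. Replicate 2 gave the highest value for 10 of the 20 highest genes by mean, and replicates 1 and 4 the lowest value for 8 and 7. Of all 12720 genes with a mean of at least 10 TPM, replicate 2 was highest in 26.3%. Replicates 1 and 4 were lowest in 19.8% and 32.2% of them. Among the 100 highest genes, replicates 2 and 4 gave the highest value for 34 and 33.

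**Figure D2:**
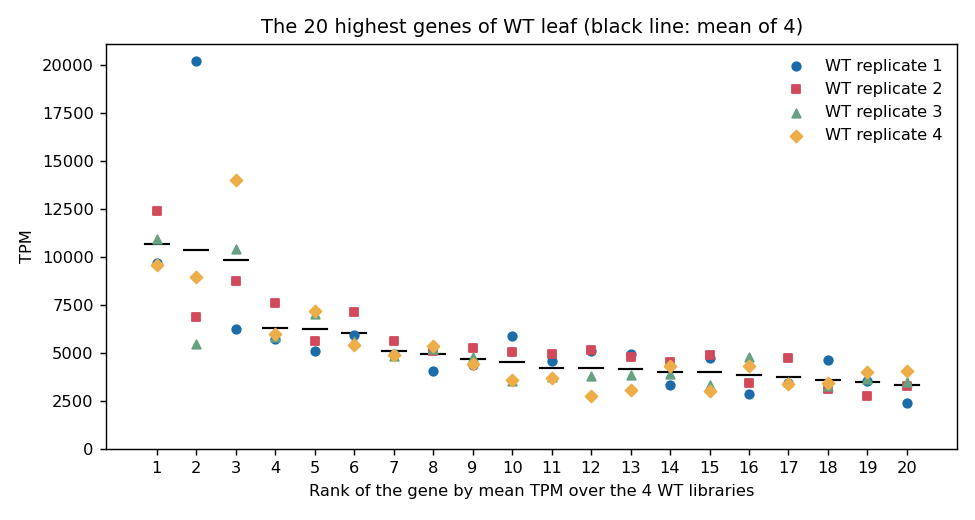
TPM of the 20 highest genes of WT leaf, ranked by mean from left to right on the horizontal axis, with one symbol per library and a black line at the mean of 4. The gene at rank 2 stands out through replicate 1 at 20186 TPM, and the gene at rank 3 spans 6262 to 13977 TPM.

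A large share of the table was silent or faint in these leaves. No TPM was listed in any of the 4 libraries for 8453 genes, 24.9% of the table, and another 3112 genes were listed at 0 TPM in 1 to 3 libraries. A level of at least 1 TPM in all 4 libraries, used here as the limit of detection, was reached by 18396 genes or 54.1%. A further 4015 genes were above 0 TPM in every library but fell below 1 TPM in at least 1 of them. The median gene of the whole table had a mean of 2.84 TPM, and the median gene detected in all 4 libraries had 19.4 TPM. By library, 23983, 23509, 24079 and 23965 genes were above 0 TPM in replicates 1 to 4. Replicate 2 had the fewest, and of the 935 genes listed at 0 TPM in exactly 1 library, 402 were at 0 in replicate 2, against 148 to 195 in each of the others. Replicate 2 is also the WT library with the fewest reads by the study's own totals, and the part of depth in these counts was not tested.

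The levels were spread unevenly over the classes. The 74 genes with a mean of at least 1000 TPM held 19.4% of the TPM, the 1856 genes at 100 to 1000 TPM held 41.1%, the 2216 genes at 50 to 100 TPM held 15.4% and the 8574 genes at 10 to 50 TPM held 20.9%. The 6581 genes between 1 and 10 TPM held 3.04% together. The highest gene listed at 0 TPM in any library was Solyc02g090060_1_1, with 0.894 TPM in replicate 1, 0 TPM in replicate 2, 6.38 TPM in replicate 3 and 9.45 TPM in replicate 4. Only 94 genes with a 0 had a mean of at least 1 TPM, so genes missing from a library were nearly always faint in the others as well.

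Every chromosome contributed roughly in proportion to its number of genes. Chromosome 1, with 4133 genes or 12.2% of the table, held 11.8% ± 0.17 of the TPM, and chromosome 11, with 6.84% of the genes, held 6.04% ± 0.10 (SD, n = 4). Chromosome 8 held the largest excess, 8.53% ± 0.24 of the TPM with 7.15% of the genes. Chromosome 9 varied the most between libraries, with 9.37% of the TPM in replicate 1 and 7.82%, 7.92% and 8.36% in replicates 2 to 4, and replicate 1 is the library in which a gene of that chromosome held 2.02%. On chromosomes 1 to 12, detection in all 4 libraries ranged from 47.7% of the genes on chromosome 10 to 58.1% on chromosome 2. Chromosome 10 nevertheless supplied 13 of the 100 highest genes, the most of any. The 424 genes numbered to chromosome 0, the label for sequence not placed on a chromosome, behaved differently. Of these, 11.6% were detected in all 4 libraries, 51.7% were at 0 TPM in all 4, and together they held 0.081% of the TPM.

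Detection differed more between version numbers, the single figure that follows the gene number in the identifier, than between chromosomes 1 to 12. Of the 11649 genes at version 1, 24.3% were detected in all 4 libraries and 50.05% were at 0 TPM in all 4. Of the 11767 genes at version 3, 71.2% were detected and 11.6% were at 0 TPM, and of the 5690 genes at version 4, 78.9% were detected and 4.15% were at 0 TPM. The version 1 genes held 17.1% ± 0.42 of the TPM and the version 3 genes 46.3% ± 0.42 (SD, n = 4), although they are nearly equal in number. Version 1 genes were still 24 of the 100 highest, and the second gene of the ranking was one of them. Among genes with a mean of at least 10 TPM, those at version 1 also varied more, with a median SD over mean of 0.132 against 0.075 at version 3.

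Replicate spread was small for genes that were well above the limit of detection. It is given as SD over mean of TPM over the 4 libraries, for the 12720 genes with a mean of at least 10 TPM. The median was 0.081, the quartiles 0.053 and 0.129, and 2841 genes or 22.3% lay below 0.05. Above 0.5 lay 161 genes or 1.27%, and they held 2.11% of the TPM. In 592 genes, 4.65%, the highest library was at least 2 times the lowest. An SD from 4 values is itself imprecise, and its 95% interval, for normal values, runs from 0.566 to 3.73 times the estimate.

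Spread fell with level and then rose again at the top. The median SD over mean was 0.484 for genes at 0.1 to 1 TPM, 0.173 at 1 to 10 TPM, 0.082 at 10 to 50 TPM, 0.076 at 50 to 100 TPM and 0.084 at 100 to 1000 TPM. For the 74 genes at or above 1000 TPM it was 0.148. With any 1 library left out this last value ran from 0.113 to 0.164, and for each library left out it was above the median of every class between 10 and 1000 TPM. Among these 74 genes the highest value was most often in replicate 2, in 27 genes, or replicate 4, in 25 genes, and the lowest most often in replicate 1, in 31 genes. These are 36.5%, 33.8% and 41.9% of the 74 genes, beside 26.3%, 20.5% and 19.8% of all 12720 genes with a mean of at least 10 TPM. The steadiest of them, on chromosome 11, had a mean of 1011 TPM and an SD over mean of 0.020, and the least steady was the chromosome 9 gene at rank 2, with 0.647.

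**Figure D3:**
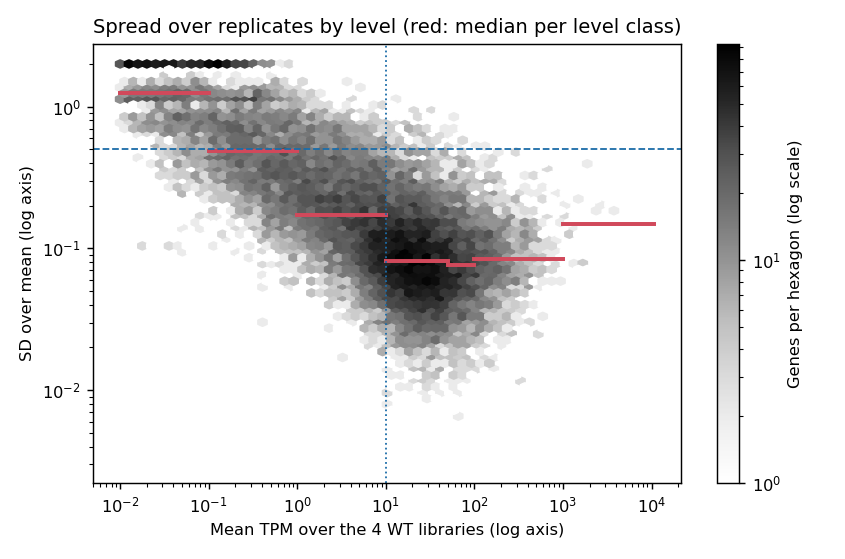
SD over mean of the 4 WT libraries against mean TPM, both on log axes, for genes with a mean of at least 0.01 TPM, with grey hexagons shaded by the number of genes. Red lines give the median of each level class, which falls to 0.076 at 50 to 100 TPM and stands at 0.148 at or above 1000 TPM, the dashed line marks 0.5 and the dotted line 10 TPM.

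The steadiest genes were of moderate level. Solyc04g011460_3_1 on chromosome 4 had 73.0, 72.7, 73.0 and 73.3 TPM, an SD over mean of 0.0031. The 95% interval for normal values, 0.0017 to 0.0114, ignores that this gene was picked as the lowest of 12720. Solyc04g010310_4_1, on the same chromosome, had 27.2, 27.0, 27.1 and 27.0 TPM and an SD over mean of 0.0040. The 10 steadiest genes had means between 11.7 and 73.0 TPM and SD over mean up to 0.0069, and 5 of them are on chromosome 4. That chromosome has 1095 of the 12720 genes with a mean of at least 10 TPM. Their median SD over mean was 0.080, beside 0.081 for all, so the chromosome as a whole was not steadier. The intervals of the 10 steadiest genes overlap, so their order is not resolved. With the libraries rescaled to the median ratio of genes to their means, the values of the first and second gene were 0.0135 and 0.0089, so spread this low also depends on how the libraries are scaled. When any 1 library was left out, at most 1 of the 10 was still among the 10 steadiest, so these genes are examples of low spread and not a fixed set.

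Among the least steady genes, the library that stood apart changed from gene to gene. Solyc11g022590_1_1 on chromosome 11 had 4.56, 2.77, 11.1 and 52.9 TPM, an SD over mean of 1.33. The 95% interval of the SD for normal values, divided by the mean, was 0.751 to 4.94. It takes the mean as known and ignores that this gene was picked as the highest. With an SD above the mean, levels that cannot be negative are also poorly described as normal. Replicate 4 stood alone, and without that library the SD over mean of this gene was 0.716. Solyc06g065060_1_1 on chromosome 6 had 33.8, 4.70, 3.82 and 8.40 TPM, with replicate 1 alone on top and an SD over mean of 1.12, or 0.430 without replicate 1. The tenth, on chromosome 4, had 122 and 135 TPM in replicates 1 and 2, against 18.7 and 8.98 TPM in replicates 3 and 4. With any 1 library left out, 4 of the 10 remained among the 10 least steady. Among all 161 genes above 0.5, replicate 4 was the highest library in 69, or 42.9%, beside 20.5% of all 12720 genes. Replicate 1 was the highest in 30.4%, close to its 31.1% of all genes, and replicate 2 the lowest in 42.2%, beside 32.7% of all genes.

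**Figure D4:**
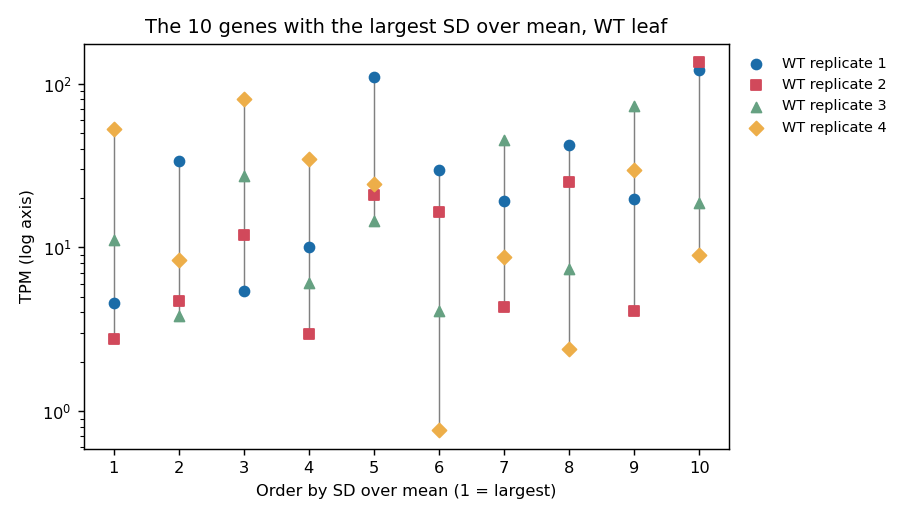
TPM on a log axis of the 10 genes with the largest SD over mean among those with a mean of at least 10 TPM, ordered from the largest at 1.33 on the left, with one symbol per library and a grey line over the range. The highest library differs from gene to gene, and the widest range is the sixth gene's, 0.762 to 29.6 TPM.

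Some of the variable genes lie side by side. Solyc numbers run along the chromosome, and 14 of the 161 genes, forming 8 pairs of consecutive identifiers, had a variable neighbour. They are 8.70% of the 161 genes. Of the 100 highest genes, 6% lay next to another of that set, as did 72.1% of all 12720 genes with a mean of at least 10 TPM. These sets differ in size, and the share for 161 genes taken without regard to spread was not worked out. In 7 of the 8 pairs both genes were highest in the same library, as were 29.7% of all 6122 pairs of consecutive identifiers in which both genes had a mean of at least 10 TPM. The run that ends with the tenth least steady gene, for example, has 3 identifiers on chromosome 4, and the middle one had 57.1, 58.4, 9.84 and 3.31 TPM, again high in replicates 1 and 2. The identifier before the chromosome 9 gene at rank 2 had 2289, 835, 689 and 1167 TPM, with the same order of libraries as its neighbour. These pairs were picked out after their values had been seen. Salmon divides reads between transcripts of like sequence, and whether neighbours share reads was not tested.

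Product names were at hand for 80 genes that could be placed in 5 lists, all from the study's own text and its list of genes that differed between the edited lines and WT. They are no sample of the leaf transcriptome, and their names were partly read from page images. In WT, 54 of the 80 were detected in all 4 libraries, or 67.5%, beside 54.1% of all genes. A mean of at least 10 TPM was reached by 27, or 33.75%, beside 37.4% of all genes. Together they held 0.132% ± 0.0072 of the TPM (SD, n = 4). The median SD over mean of those 27 was 0.216, with a range of 0.106 to 0.493, so every one of them lay above the median of 0.081 of all genes at that level. None exceeded 0.5.

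The 17 transcription factors of the lists had means from below 1 TPM to 86.8 TPM, and they do not stand for all factors. *SlMYB60* (Solyc10g081490_2_1), the R2R3 MYB factor that the study edited, whose Arabidopsis homolog acts in guard cells, had 12.9, 12.3, 19.3 and 21.6 TPM, with replicates 3 and 4 above replicates 1 and 2. It ranked 10107th, above 45.1% of the genes detected in all 4 libraries, and its SD over mean of 0.280 was larger than that of 94.3% of genes with a mean of at least 10 TPM. Another R2R3 factor, MYB52 (Solyc03g093890_3_1), showed the same division, with 11.99, 12.6, 17.4 and 17.3 TPM. The division is common. Of all 12720 genes with a mean of at least 10 TPM, 24.8% had replicates 1 and 2 both below replicates 3 and 4. Another 29.5% had them both above. The list of 17 factors had 13 or 76.5% detected in all 4 libraries, beside 54.1% of all genes, and a median of 5.07 TPM, beside 2.84 TPM for all genes. The highest was a homeobox leucine zipper-like gene (Solyc02g077590_1_1) at 86.8 ± 12.5 TPM, followed by bHLH071 (Solyc12g036470_2_1) at 49.3 ± 12.9 TPM (SD, n = 4). Ethylene Response Factor D.4 (Solyc10g050970_1_1), of a family that acts in ethylene and stress responses, had 0.236, 0.088, 2.22 and 0.235 TPM and passed 1 TPM in replicate 3 alone. A B3 family factor (Solyc08g006280_2_1) had 0.052, 0.271, 1.85 and 0.067 TPM and was likewise high in replicate 3 only.

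Of the 18 genes for cell wall proteins, 11 or 61.1% were detected in all 4 libraries, beside 54.1% of all genes, and their median of 2.59 TPM was close to the 2.84 TPM of all genes. A mean of at least 10 TPM was reached by 3 of them, 16.7%, beside 37.4% of all genes. The 6 genes of this list for xyloglucan endotransglucosylase/hydrolases, which remodel hemicellulose chains in growing walls, are not the whole family. They all lay below 4 TPM on average, from 0.527 TPM (Solyc12g011023_1_1) to 3.94 TPM (Solyc03g093130_3_1). The higher of these had 6.15, 3.00, 2.69 and 3.94 TPM, the highest value being in replicate 1. Expansin-like protein precursor 1 (Solyc01g112000_4_1) was the highest of the list, with 78.4, 63.2, 74.5 and 64.6 TPM. A glucan endo-1,3-beta-glucosidase (Solyc02g086700_4_1), which cleaves callose-type glucans, had 38.6, 62.7, 30.4 and 21.7 TPM. A rhamnogalacturonate lyase (Solyc11g011310_3_1), of a family that degrades pectin, was listed at 0 TPM in 3 libraries and at 0.066 TPM in replicate 3.

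The cuticle and acyl lipid list held the most TPM, 0.0556% ± 0.0082 (SD, n = 4), and most of it came from 1 gene. This was a non-specific lipid transfer protein (Solyc10g075090_3_1), of a family of small secreted proteins that bind lipids and are abundant in the epidermis, with 410, 260, 276 and 302 TPM at rank 408. A second one (Solyc10g075103_1_1) had 97.6, 72.9, 37.4 and 76.2 TPM. The gene at rank 18 of all, at 3599 ± 694 TPM (SD, n = 4), has the identifier between these 2 on chromosome 10 and carries no product name in the sources used here. It was also highest in replicate 1, as were 31.1% of all 12720 genes with a mean of at least 10 TPM. Both ABC transporter G family member 11 genes, of a family that exports cuticular lipids in Arabidopsis, lay side by side on chromosome 5. The one named Solyc05g051540_3_1 had 41.4, 53.6, 47.6 and 31.8 TPM, and Solyc05g051530_4_1 had 24.0, 28.2, 24.7 and 16.6 TPM, in the same order of libraries. A fatty acid desaturase (Solyc12g100240_1_1), an enzyme that places double bonds in acyl chains, had 61.8 ± 7.85 TPM (SD, n = 4). The 2 GDSL esterase/lipases, from a family that includes cutin synthases, were low, with 4.72 ± 1.06 TPM (Solyc03g005900_4_1) and 0.916 ± 0.206 TPM (Solyc11g032050_2_1).

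Of the 11 transporters and channels, 6 or 54.5% were detected in all 4 libraries, as were 54.1% of all genes, and their median was 2.25 TPM, beside 2.84 TPM for all genes. A calcium-transporting ATPase (Solyc02g064680_4_1), a pump that removes calcium from the cytosol, had 39.8, 51.5, 52.1 and 57.0 TPM. Boron transporter 1 (Solyc06g071500_3_1) had 19.5, 17.3, 17.3 and 27.7 TPM, with replicate 4 on top. An NRT1/PTR family gene (Solyc08g077170_3_1), of a family that carries nitrate and peptides, was steadier at 13.7 ± 1.53 TPM (SD, n = 4). An S-type anion channel gene (Solyc09g014610_4_1), of a family with members in guard cells, lay between 0.214 and 0.417 TPM. An ABC transporter (Solyc06g076930_2_1) stayed between 0.296 and 0.306 TPM, an SD over mean of 0.017 at a level where the median over all genes of 0.1 to 1 TPM was 0.484.

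Of the 19 genes of the stress and defence list, 13 or 68.4% were detected in all 4 libraries, beside 54.1% of all genes and 67.5% of the 80 named ones. Their median was 4.79 TPM, beside 2.84 TPM for all genes. The water stress given in the labels cannot be read from these levels, since WT alone offers no unstressed leaf to set them against. Of the 3 late embryogenesis abundant genes, a group known for protection during drying, 2 had 61.7 ± 14.9 TPM (Solyc01g095150_3_1) and 25.8 ± 4.32 TPM (Solyc03g121620_1_1; SD, n = 4). The higher of these was at 84.0 TPM in replicate 3 and at 53.0 to 56.3 TPM in the others. The third, Solyc01g006320_4_1, had 25.2, 22.2, 33.5 and 39.1 TPM, with replicates 3 and 4 on top, as in 24.8% of all 12720 genes. Dehydration-responsive element-binding protein 1E (Solyc06g007820_1_1), counted among the factors above and of a family that acts in the cold and drought response, was low at 1.59, 0.374, 2.47 and 1.103 TPM. Heat shock protein 70 (Solyc06g076020_3_1), a chaperone, had 13.8, 16.96, 14.2 and 13.4 TPM. Senescence-associated gene 21 (Solyc12g099465_1_1) had 21.4 ± 2.83 TPM (SD, n = 4). The gene named major allergen Pru ar 1 (Solyc12g096960_2_1), related to defence proteins of the PR-10 family, had 9.82, 15.9, 31.5 and 26.1 TPM, with replicates 3 and 4 on top. A peroxidase (Solyc11g018774_1_1) had 6.15, 9.08, 10.0 and 18.7 TPM. TPSI1 (Solyc03g098010_3_1), named after its induction when phosphate is short, was low at 0.406 ± 0.063 TPM (SD, n = 4). The respiratory burst oxidase homolog (Solyc05g025680_3_1), of a family that makes apoplastic superoxide, did not pass 0.041 TPM in any library.

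**Figure D5:**
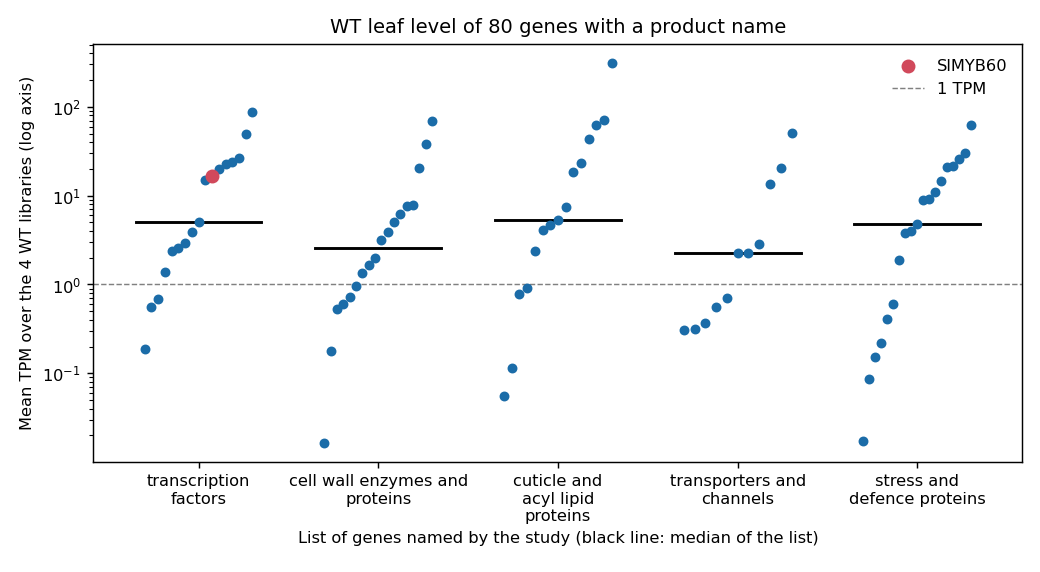
Mean TPM over the 4 WT libraries, on a log axis, of the 80 genes with a product name, sorted within each of 5 lists, with a black line at the median of the list and a dashed line at 1 TPM. Medians lie between 2.25 and 5.28 TPM, the highest point is the lipid transfer protein at 312 TPM, and *SlMYB60* is the red point at 16.5 TPM.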

How the data were processed

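Leaf mRNA of 4 WT replicates was analysed, out of 12 samples in 3 genotypes. Reads had been trimmed by the authors (fastp) and assigned to ITAG 4.0 transcripts by Salmon, whose GC and sequence bias corrections were switched on. The deposited table gives TPM per gene and library, without averaging replicates. Tool versions are not given in the sources used here. Every deposited column summed to 1000000 TPM, and 0 columns were left unmapped to a sample. TPM keeps no depth, so no count test, interval for counting error or floor was computed, and transcript levels of genes with like sequence depend on how Salmon divided their reads. The authors' own tests used DESeq2, and none of their values was used, though they decided which genes the study lists by name.

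Means, SD, SD over mean, ranks and shares were computed in Python 3.11.15 with numpy 2.4.6, pandas 2.3.3 and scipy 1.17.1, and figures drawn with matplotlib 3.10.9. Detected means at least 1 TPM, and stability was described for a mean of at least 10 TPM. The steps were tested on simulated data. No test between groups was made, since only WT was described.

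The members, lists and limits were chosen with earlier results of these data known. The genes named were the 20 highest by mean, the 10 steadiest and 10 least steady with a mean of at least 10 TPM, the highest gene with a 0 and *SlMYB60*. Genes without a product name are given as at most 2 identifiers per group. Lists by function, and the 3 highest genes of each, could not be made. In their place stand 80 genes that the study names, which were chosen after the values had been seen, and further genes are named in the neighbour and level results on the same footing. Alternatives covered leaving out each replicate, the limits, the scaling of libraries, the median in place of the mean and the log scale.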

Additional observations from a re-analysis of the deposited data

Results flagged for a closer look

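A library standing far from the other 3 was looked for in 155 reported results, as a gap to the nearest library, divided by the whole range, above Dixon's 95% critical value for 4 samples. It was found in 22 of them, 14.2%, whereas chance gives about 1 in 20 for a single result. The 155 include genes picked for their spread and sums that overlap, and over all 12720 genes with a mean of at least 10 TPM the share was 5.15%. Replicate 2 was the library apart in 10, replicates 1 and 3 in 5 each and replicate 4 in 2. Of the 655 such genes among the 12720, replicate 2 stood above the rest in 113 and below it in 185. Replicate 1 stood above in 129 and below in 51, replicate 3 in 40 and 14, and replicate 4 in 60 and 63. What sets replicate 2 apart was not tested.

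At wide limits the TPM was the most concentrated in replicate 2, while replicate 1 led in its 10 and 20 highest genes. The gap of replicate 2 was 0.922 of the range for the share of the 5000 highest genes, 0.853 for the number of genes that hold 75% of the TPM, 0.926 for those that hold 90%, and 0.8294 for the genes at or above 10 TPM. The share of chromosome 10 was lowest there, with a gap of 0.893, as was the summed TPM of the transcription factors, 0.830. Among the highest genes replicate 2 stood above the rest at rank 4 (0.848), rank 7 (0.874) and rank 17 (0.920), and below it in 1 of the 10 steadiest genes, on chromosome 7 (0.899).

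Replicate 1 stood alone above the rest in 2 of the least steady genes, on chromosome 2 (0.896) and chromosome 6 (0.847), in the AP2/B3 factor (0.830) and in phospholipase A1 (0.851), and below it in the ABC transporter Solyc06g076930_2_1 (0.980), whose values span a narrow range. Replicate 3 stood above in Ethylene Response Factor D.4 (0.930), the basic helix-loop-helix gene Solyc12g008930_3_1 (0.897), the B3 family factor (0.878), the late embryogenesis abundant gene Solyc01g095150_3_1 (0.894) and the rhamnogalacturonate lyase, where the gap was 1 because the other libraries are at 0 TPM. Replicate 4 stood above in the least steady gene, on chromosome 11 (0.833), and below in the xyloglucan galactosyltransferase KATAMARI1 gene (0.897).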

How the results depend on the processing

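Shares by rank depended little on the alternatives, while counts of genes detected or not followed the limit in TPM. Without any 1 replicate, the 10 highest genes held 6.76% to 7.02%, 50% of the TPM was held by 1073 to 1101 genes, and 18491 to 18635 genes were detected in all remaining libraries. With the highest gene left out of the total, the 10 highest held 6.28% and the 100 highest 20.9%, by construction lower than 6.85% and 21.7% from the mean profile. In all 4 libraries, 8453 genes were at 0 TPM, 9971 below 0.1 TPM, 12382 below 0.5 TPM and 15441 below 2 TPM. With limits of 0.1, 0.5, 1 and 2 TPM, 21372, 19515, 18396 and 17024 genes were detected in all 4. The median SD over mean was 0.0675 to 0.0850 without 1 replicate, the lowest without replicate 2, and 0.139 with no filter beyond a mean above 0 TPM. The number of genes above 0.5 followed the filter, with 283 at a mean of at least 5 TPM, 40 at 50 TPM and 4852 with no filter. The median over replicates, rescaled libraries and SD on the log scale with pseudocounts of 1 and 0.1 moved none of these results beyond a set limit. This limit was the SD over replicates for a share and 1.5 times for a count. For the median SD over mean it was the SD of its 4 values with 1 library left out. Mean levels of named genes moved by less than 1 SD in 210 of 210 pairs of gene and setting. In 58 of 210 pairs their SD over mean moved by more than the SD of its 4 leave-one-out values. Among these were 10 of the 10 steadiest genes with rescaled libraries. Leaving out 1 of 4 libraries cannot move a mean by 1 SD. For mean levels only the rescaled libraries were therefore a check. For the 5 lists, shares stayed within 1 SD in 35 of 35 pairs of list and setting. In 12 of 50 pairs their median SD over mean moved by more than the SD of its leave-one-out values. Leaving out 1 library could not have moved those shares by 1 SD either. At or above 1000 TPM, alternatives chosen after seeing the data gave a median of 0.153 with rescaled libraries and of 0.113 without replicate 1. Lists by function could not be run. No paired analysis was possible because 1 group was described. The reads behind a gene's TPM are not known, so absence at 0 TPM cannot be told from low sampling.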
